A study of Mus musculus with 9 samples.

Results

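Cholesterol synthesis and efflux genes were followed across the cell labels of mouse thyroid after antibody blockade of Notch ligands or Notch receptors. The members were 8 genes listed by symbol, a list drawn up with earlier results of these data known, out of 52636 genes in the count table: Hmgcs1, Idi1, Fdft1 and Sqle of the synthesis pathway, Srebf2 and Insig1 of its control, and Abca1 and Abcg1 of efflux. All 8 matched 1 gene identifier each. In GRCm38, Hmgcs1 lies at chr13:119690379-119708260, Idi1 at chr13:8885501-8892451, Fdft1 at chr14:63145150-63179578, Sqle at chr15:59315077-59331192, Srebf2 at chr15:82147181-82205379, Insig1 at chr5:28071363-28078662, Abca1 at chr4:53030787-53159895 and Abcg1 at chr17:31057675-31117988. The data were counts of unique molecular identifiers (UMIs, tags that count each captured RNA molecule 1 time) in 10186 single cells, from 9 samples in 3 groups of 3. The control group RW was given an anti-ragweed antibody at 40 mg/kg. In the group aJ1aJ2 the ligands were blocked, with anti-Jag1 and anti-Jag2 at 20 mg/kg each. In the group aN1aN2 the receptors were blocked, with anti-Notch1 at 5 mg/kg and anti-Notch2 at 10 mg/kg. All were male C57BL/6 mice given 1 intraperitoneal injection and labelled day 7. Their age is given as 10 to 12 weeks in the series' design text and as 10 to 14 weeks in the treatment protocol. Each sample pooled the thyroids of 6 mice, so the spread between samples is the spread between pools. All 3 aN1aN2 samples have titles from a number range that holds no other group, so receptor blockade and that range cannot be told apart.

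Cells make cholesterol from acetyl-CoA through mevalonate and squalene. When sterols run low in the endoplasmic reticulum, the transcription factor SREBP2, the product of Srebf2, moves to the nucleus and turns on the synthesis genes and the LDL receptor, and Insig1 holds it back when sterols are plentiful. When sterols are in excess, oxysterols activate the liver X receptors (LXR), which work as partners of retinoid X receptors and turn on Abca1 and Abcg1, the pumps that load cholesterol onto apolipoprotein A-I and onto high-density lipoprotein.

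Promoter sequence is shown for 4 members, those whose window held a match to any of 3 motifs. RefSeq (GRCm38.p6) gave a promoter window for 5 of the 8 members (Hmgcs1, Idi1, Insig1, Srebf2 and Abca1), and the 250 bases before the RefSeq start were searched on both strands for TCACCCCA (a sterol regulatory element core), CACGTG (an E-box) and GGTNA followed by any 5 bases and GGTNA (a direct repeat of the kind that LXR and retinoid X receptors bind). RefSeq starts differ from the gene coordinates given above: the RefSeq start lies 28 bases upstream of the coordinate for Hmgcs1, 105 downstream for Idi1, 49 downstream for Insig1 and 88 downstream for Srebf2, and is the same base for Abca1. No searched motif overlapped another. Matches of these 3 motifs are in capitals, 5′ to 3′ on the gene's strand. Hmgcs1 is chr13:119690101-119690350 (plus strand), Srebf2 chr15:82147019-82147268 (plus), Insig1 chr5:28071162-28071411 (plus) and Abca1 chr4:53159896-53160145 (minus).
Hmgcs1: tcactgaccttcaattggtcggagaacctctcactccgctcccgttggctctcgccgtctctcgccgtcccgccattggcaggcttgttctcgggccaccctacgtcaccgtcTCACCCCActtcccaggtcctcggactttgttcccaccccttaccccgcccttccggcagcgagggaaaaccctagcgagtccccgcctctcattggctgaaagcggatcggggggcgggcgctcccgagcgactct
Srebf2: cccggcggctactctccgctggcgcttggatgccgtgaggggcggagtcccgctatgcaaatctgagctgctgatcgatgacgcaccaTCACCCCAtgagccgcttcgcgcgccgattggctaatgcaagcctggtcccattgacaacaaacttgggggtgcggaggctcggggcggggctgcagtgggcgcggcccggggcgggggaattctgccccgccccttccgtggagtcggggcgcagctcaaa
Insig1: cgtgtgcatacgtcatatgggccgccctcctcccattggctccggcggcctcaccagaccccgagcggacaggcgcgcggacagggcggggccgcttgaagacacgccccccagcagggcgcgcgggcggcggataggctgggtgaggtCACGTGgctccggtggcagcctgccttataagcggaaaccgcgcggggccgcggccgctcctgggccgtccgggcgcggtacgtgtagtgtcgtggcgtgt
Abca1: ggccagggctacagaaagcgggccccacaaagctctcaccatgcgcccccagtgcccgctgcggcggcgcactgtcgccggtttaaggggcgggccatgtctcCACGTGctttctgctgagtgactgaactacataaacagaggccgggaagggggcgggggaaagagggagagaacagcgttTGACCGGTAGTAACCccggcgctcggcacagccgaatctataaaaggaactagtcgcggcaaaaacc
TCACCCCA lay 137 bases before the RefSeq start of Hmgcs1 and 162 before that of Srebf2, and 1.34% of 32851 windows of this length hold it. CACGTG lay 101 bases before the RefSeq start of Insig1 and 147 before that of Abca1, and 6.02% of windows hold it. The direct repeat lay 67 bases before the RefSeq start of Abca1 on the opposite strand, and 0.621% of windows hold it. Idi1 held none of these 3 motifs. CCAAT was also searched, and its matches, all on the opposite strand, are left in lower case. It occurred 3 times in Hmgcs1, 2 times in Idi1, 1 time each in Insig1 and Srebf2 and not in Abca1, and 33.8% of windows hold it. A match is a description of these letters, not evidence of binding.

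Samples held 583 to 1805 cells and 3013324 to 11880793 UMIs. Cells carried the authors' 16 labels, and UMIs were added up within each label of each sample. The label Th1 held 1169 cells (62 to 193 per sample) and the highest summed level of 8 thyrocyte markers of all labels, 95174 CPM (counts per 1000000 UMIs). The endothelial markers were highest in EC1, the lymphatic ones in EC3, the macrophage markers in M, the Schwann cell markers in S, the fibroblast markers in F, the mural cell markers in SM and the parathyroid markers in P. Th3 also carried the highest C cell, skeletal muscle and adipocyte marker levels and Th2 the highest neutrophil level, so neither was read as pure thyrocytes. 15 cell barcodes occurred in more than 1 library. CPM values come from a 3′ assay without length scaling, so levels are compared between labels or groups, not between genes. The control levels across labels are plain CPM. The values given for comparisons between groups are CPM scaled by edgeR's library factors within a label, so the same pool can differ slightly between both.

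In control thyroid, labels were ordered where at least 2 RW samples held at least 20 cells, which leaves out T2, SM, P and Th2. Among the ordered labels the mean level of each synthesis gene was highest in the Schwann cell label S. In S, Hmgcs1, which makes HMG-CoA at the entry of the mevalonate pathway, read 284 and 403 CPM in the 2 RW samples with at least 20 such cells. The next label for Hmgcs1 was EC4 at 53.8 ± 3.98 CPM (SD, n = 3), with no overlap of ranges. Idi1, which isomerises isopentenyl diphosphate, read 104 CPM in both RW samples of S, against 38.7 ± 17.5 CPM (SD, n = 3) in EC3. In T2, left out of the order, RW 2 read 53.0 CPM of Idi1 and 48.5 CPM of Srebf2. Sqle, the epoxidase that acts on squalene, read 29.8 and 134 CPM in S, against at most 24.7 CPM in any RW sample of EC3, the next label. The lower S value rests on 2 UMIs in RW 3, and 31 of the 33 Sqle UMIs in S came from RW 1. Fdft1, the squalene synthase, had the highest mean in S, but 64 of its 65 UMIs there came from RW 1 (277 CPM). RW 3 read 14.9 CPM, below every RW sample of the next labels, Th3 (17.6 to 30.5 CPM) and Th1 (18.7 to 24.3 CPM). The mean of Srebf2 over the labels other than the erythroid ones ran from 20.0 CPM in EC2 to 74.4 CPM in S, and each of these labels overlapped its neighbour in the order. Insig1 was highest in S (113 and 134 CPM) and EC1 (113 ± 7.67 CPM, SD, n = 3), whose ranges overlapped, and lowest among the labels other than the erythroid ones in T1 at 14.6 ± 10.3 CPM (SD, n = 3).

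The efflux pumps had another order of labels. Abca1 was highest on average in M, F, EC3 and Th1, at 89.3 ± 94.3, 87.0 ± 28.1, 83.6 ± 26.6 and 58.9 ± 8.07 CPM (SD, n = 3 each). The M samples spread from 14.0 to 195 CPM, so these 4 labels do not differ beyond their spread. In M, 67 of 78 Abca1 UMIs came from RW 2, and the mean without it was 36.4 CPM. In S Abca1 read 0 and 21.7 CPM, and in EC1 10.7 ± 6.80 CPM (SD, n = 3). Among the ordered labels Abcg1 was highest in M, EC4 and EC1, at 54.7 ± 53.7, 52.1 ± 19.3 and 41.8 ± 9.07 CPM (SD, n = 3 each), with overlapping ranges. In T2, left out of the order, RW 2 read 49.6 CPM of Abcg1 on 44 UMIs. In M, 40 of 47 Abcg1 UMIs came from RW 2, and the mean without it was 23.8 CPM, below EC4 and EC1. In RW thyrocytes it read 3.30 ± 1.21 CPM (SD, n = 3), and in F no UMI was counted. The erythroid labels Eryth1 and Eryth2 held 0 to 2 UMIs of each member in the RW samples.

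**Figure D1:**
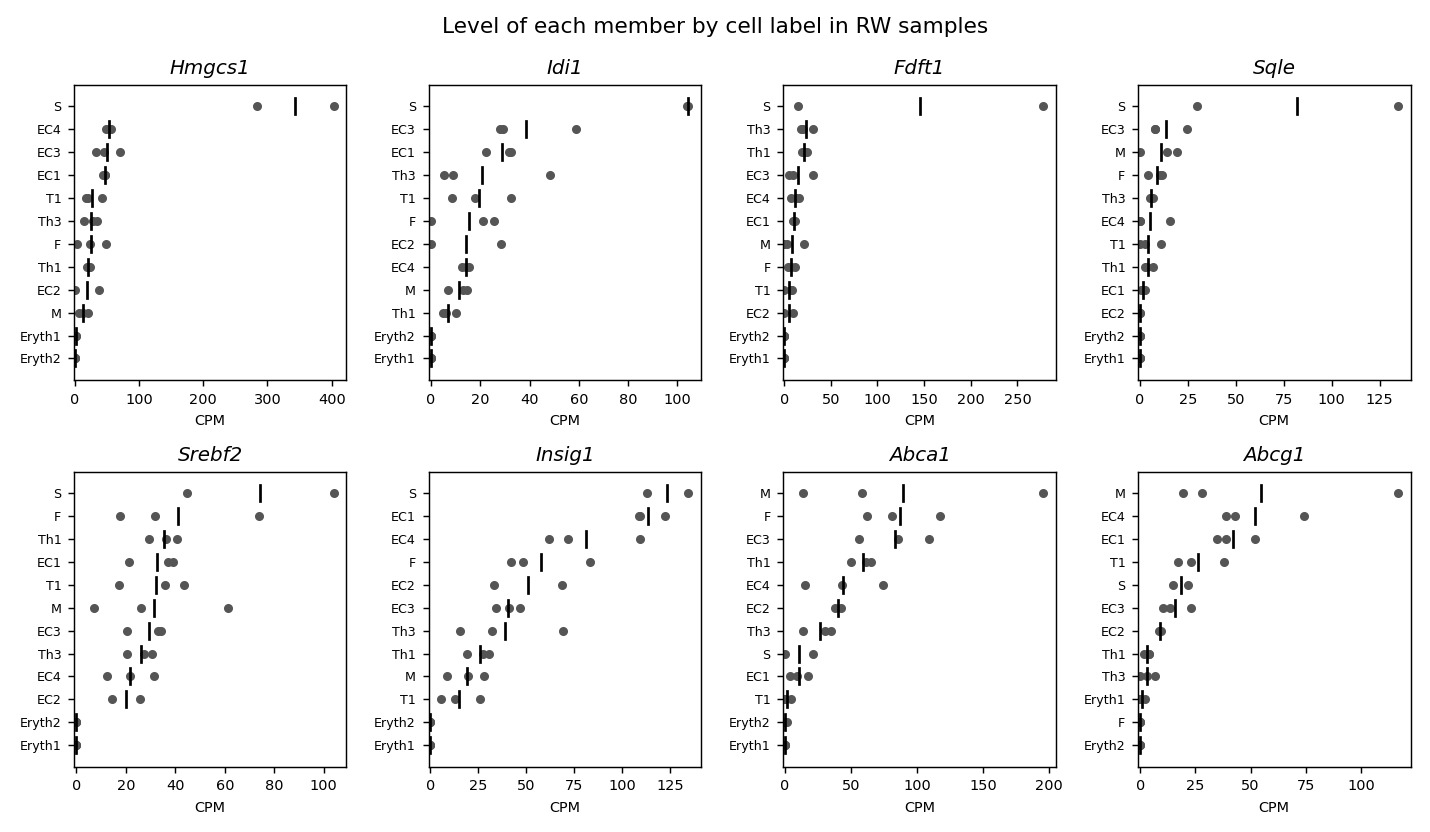
Level of each member (CPM, linear axis) in the RW samples with at least 20 cells of a label, for labels with at least 2 such samples. Points are samples and ticks are means, and labels are ordered by mean in each panel. S stands at the top for the 4 synthesis genes, Srebf2 and Insig1, while M stands at the top for Abca1 and Abcg1 through the RW 2 sample.

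Across the 12 labels with RW means, log2(CPM + 1) of Hmgcs1 went with that of Idi1 (Pearson r 0.955), Fdft1 (0.925), Insig1 (0.912), Srebf2 (0.892), Sqle (0.795), Abcg1 (0.600) and Abca1 (0.515). These r describe labels that share their 3 samples, and they moved when the near-empty erythroid labels were left out, a choice made after the levels were seen. Over the other 10 labels the r of Hmgcs1 was 0.874 with Idi1, 0.821 with Fdft1, 0.696 with Insig1, 0.683 with Sqle and 0.668 with Srebf2, but 0.201 with Abcg1 and -0.334 with Abca1. The r of Abca1 fell from 0.714 to -0.233 with Srebf2, from 0.706 to -0.00643 with Insig1 and from 0.298 to -0.323 with Abcg1. The lowest r between synthesis and regulator genes over the 10 labels was the 0.177 of Sqle with Insig1. Among genes at a mean of at least 20 CPM, those most like Hmgcs1 over the labels included Secisbp2l (0.977) and Fdps (0.972). For Idi1 they were Fdps (0.974), Josd2 (0.963) and Pmvk (0.960), for Fdft1 they included Vamp2 (0.954) and Itpk1 (0.950), and for Sqle Pcbp4 (0.908), Ptprs (0.906) and Syt11 (0.901). Fdps and Pmvk are themselves synthesis enzymes. For Insig1 the most alike were Rab6a (0.985), Scoc (0.982) and Ap2a1 (0.981), for Srebf2 Otub1 (0.995), Fam89b (0.994) and Ndrg3 (0.993), for Abca1 they included Vwa5a (0.931) and Pcyt1a (0.929), and for Abcg1 Prex1 (0.940), Gng2 (0.932) and Plekho1 (0.899). Without the erythroid labels, 6 of the 24 most alike genes over 12 labels (3 for each member) were again among the 3 most alike of the same member.

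In thyrocytes, label Th1, both efflux pumps rose under receptor blockade. Abca1 read 60.9, 65.5 and 50.5 CPM in RW 1 to 3, 66.6, 99.5 and 106 CPM in aJ1aJ2 1, 3 and 4, and 299, 317 and 246 CPM in aN1aN2 1 to 3. The 3 groups did not overlap, and every aN1aN2 pool lay above every other pool. The log2 change of aN1aN2 against RW was 2.31 ± 0.16 (SE), with adjusted p = 9.87e-08 by edgeR's quasi-likelihood test. Against aJ1aJ2 it was 1.66 ± 0.16 (SE, adjusted p = 4.52e-06). For aJ1aJ2 against RW the value was 0.65 ± 0.17 (SE), which did not pass (adjusted p = 0.0924).

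Abcg1 was sparse, with 34 UMIs in RW, 68 in aJ1aJ2 and 104 in aN1aN2 thyrocytes. It read 3.96, 4.01 and 1.93 CPM in RW 1 to 3, 9.06, 8.29 and 8.66 CPM in aJ1aJ2 1, 3 and 4, and 23.4, 25.8 and 21.6 CPM in aN1aN2 1 to 3. The 3 groups were separate in these pools as well. Abcg1 rose by a log2 change of 2.93 ± 0.29 (SE, adjusted p = 1.89e-06) under aN1aN2 and of 1.47 ± 0.31 (SE, adjusted p = 0.0437) under aJ1aJ2, and aN1aN2 exceeded aJ1aJ2 by 1.46 ± 0.26 (SE, adjusted p = 0.000864). The aJ1aJ2 call was lost when RW 1, RW 2, RW 3, aJ1aJ2 3, aJ1aJ2 4 or any aN1aN2 pool was left out (adjusted p from 0.0627 to 0.202), with a log2 change between 1.10 and 1.76. It was also lost within the title range that holds RW 1, RW 2, aJ1aJ2 3 and aJ1aJ2 4 (log2 change 1.08, adjusted p = 0.120).

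Receptor blockade also went with higher Insig1 and Fdft1 in thyrocytes, a brake on synthesis and a synthesis enzyme. Insig1 read 30.1, 27.4 and 19.1 CPM in RW 1 to 3, 25.1, 23.3 and 35.2 CPM in aJ1aJ2 1, 3 and 4, and 57.1, 53.4 and 64.7 CPM in aN1aN2 1 to 3. Fdft1 read 21.5, 18.7 and 24.6 CPM in RW, 24.5, 31.1 and 20.2 CPM in aJ1aJ2, and 52.2, 48.6 and 69.5 CPM in aN1aN2, in the same order of pools. For both genes the aN1aN2 pools stood above all others, while RW and aJ1aJ2 overlapped. The log2 change of aN1aN2 against RW was 1.20 ± 0.19 (SE, adjusted p = 0.000226) for Insig1 and 1.32 ± 0.18 (SE, adjusted p = 5.92e-05) for Fdft1. Against aJ1aJ2 it was 1.09 ± 0.20 (SE, adjusted p = 0.00110) for Insig1 and 1.07 ± 0.18 (SE, adjusted p = 0.000736) for Fdft1. Exons of Fdft1 share 774 bases with those of Ctsb on the other strand, and the use of strand in the counting is not given in the sources used here. Ctsb fell by 0.71 on the log2 scale in the same comparison (adjusted p = 0.000362).

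The other 4 members did not pass the test in thyrocytes under either blockade. Hmgcs1 averaged 21.7 ± 2.14 CPM in RW, 20.2 ± 6.04 in aJ1aJ2 and 20.6 ± 3.01 in aN1aN2 (SD, n = 3 each). Its log2 change under aN1aN2 was -0.10 ± 0.22 (SE, adjusted p = 0.776). Srebf2 averaged 35.5 ± 5.62, 31.3 ± 6.11 and 37.2 ± 2.38 CPM (SD, n = 3 each) in RW, aJ1aJ2 and aN1aN2, with a log2 change of 0.09 ± 0.17 (SE, adjusted p = 0.720) under aN1aN2. Idi1 and Sqle were low, at 6.99 ± 2.80 and 4.45 ± 2.13 CPM (SD, n = 3) in RW thyrocytes. Their log2 changes under aN1aN2 were 0.08 ± 0.34 and 0.05 ± 0.49 (SE), so these SEs limit what could be seen. Exons of Hmgcs1 and Idi1 share 557 and 323 bases with an unnamed gene model on the other strand (Gm48342 and Gm48574).

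**Figure D2:**
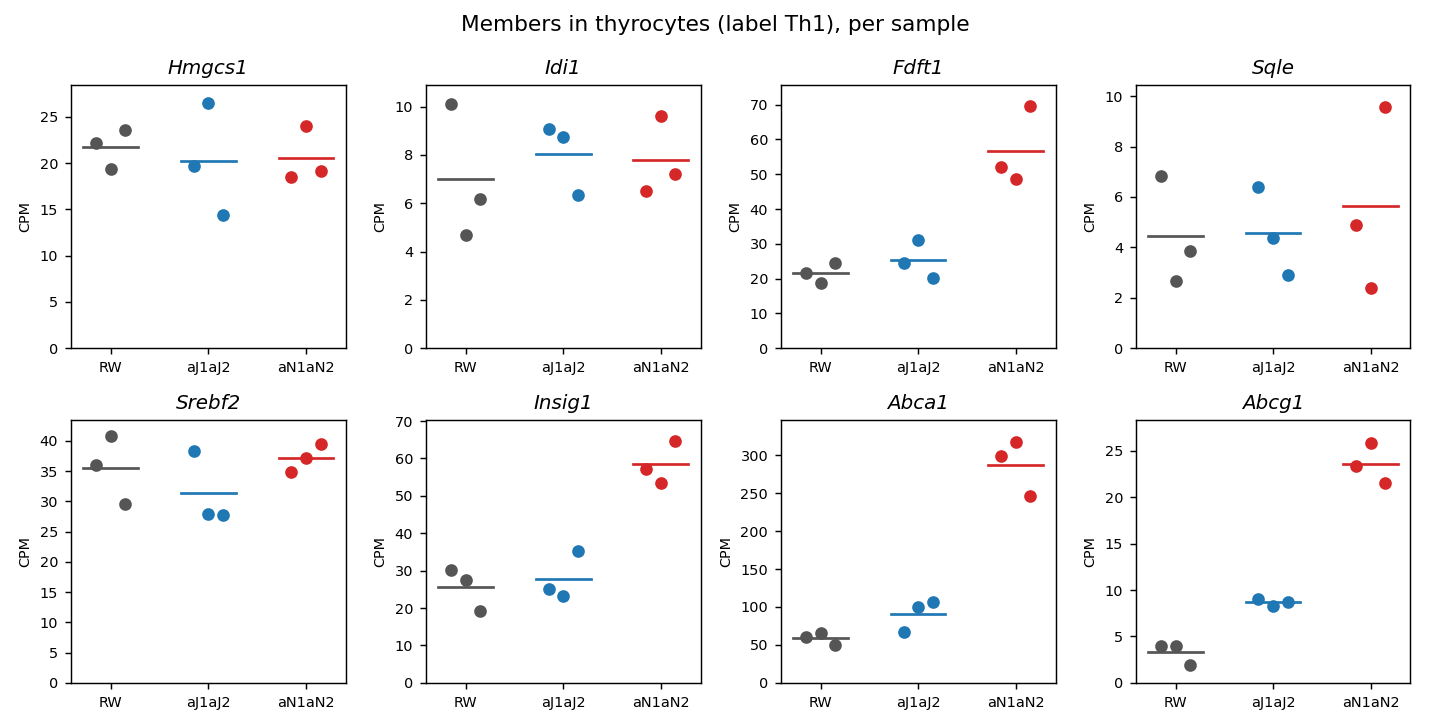
CPM of each member in the 9 Th1 sums (linear axes from 0); points are samples and lines are group means. In the panels of Fdft1, Insig1, Abca1 and Abcg1 every aN1aN2 point lies above every other point, and in the other 4 panels the groups overlap. Such separation was not counted over all genes, of which 34.4% were called for aN1aN2 against RW.

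In all, 4 of 8 members were called for aN1aN2 against RW in Th1, all higher, where 34.4% of 10627 genes were called and 17.1% were called higher. For aN1aN2 against aJ1aJ2 the same 4 members were called, all higher, where 22.3% of genes were called and 10.8% called higher. For aJ1aJ2 against RW 1 of 8 was called, where 0.612% of genes were called and 0.386% called higher. The aN1aN2 and aJ1aJ2 comparisons share the RW samples.

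Depth and other cells' markers moved with the aN1aN2 group in Th1. The median UMI count of a Th1 cell was 5737 to 7558 in aN1aN2 pools, 9968 to 15314 in aJ1aJ2 pools and 12535 to 22558 in RW pools. Among the Th1 cells with 5000 to 12000 UMIs (17 to 66 per pool), a range chosen after the data were seen, Abca1 kept its rise under aN1aN2 (log2 change 2.59, adjusted p = 3.43e-09). The other 7 members fell below the count filter there. In those cells Abcg1 had 0 UMIs in RW, 10 in aJ1aJ2 and 22 in aN1aN2, which is at least 2.56-fold higher in aJ1aJ2 and at least 8.20-fold higher in aN1aN2 at a floor of 3 counts over the RW group (counting error only). Fdft1 read 10.7 to 16.9 CPM in RW and 32.7 to 51.0 CPM in aN1aN2 in that depth range, without overlap. Insig1 read 8.62 to 33.8 CPM in RW and 28.6 to 58.2 CPM in aN1aN2, with overlap.

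After every Th1 cell was thinned to 3000 UMIs, Abca1 was seen in 46.7 to 57.3% of cells in aN1aN2 pools, 13.3 to 25.9% in aJ1aJ2 pools and 10.7 to 20.5% in RW pools. Unthinned, these shares were 74.2 to 78.9%, 60.2 to 65.6% and 57.1 to 63.4%. The unthinned shares of Insig1 (33.6 to 43.5% in aN1aN2, 33.3 to 40.0% in RW) and Fdft1 (36.7 to 43.5%, 28.6 to 42.2%) overlapped. Those of Abcg1 (19.4 to 20.9%, 4.35 to 7.78%) did not. In Eryth2, an erythroid label taken as background, 0.183% of 1092 cells (median 7944.5 UMIs) had an Abca1 UMI, against 66.5% of all Th1 cells (median 12553 UMIs). Thinned Insig1 shares were 4.90 to 17.6% in aN1aN2 and 5.03 to 9.64% in RW, so they overlapped where the summed CPM did not. The thinned shares of Fdft1 (14.7 to 22.2% against 3.89 to 6.92%) and Abcg1 (6.67 to 9.80% against 0 to 1.11%) did not overlap between aN1aN2 and RW. In aJ1aJ2 the thinned Abcg1 shares were 1.11 to 1.85%, which met the RW range at 1.11%. Srebf2 shares after thinning, 13.7 to 20.0% in aN1aN2, did not overlap 8.33 to 10.8% in RW or 6.81 to 9.26% in aJ1aJ2. Before thinning they lay the other way, at 29.7 to 38.7% in aN1aN2, below the lowest RW share of 46.1%. The direction for Srebf2 thus depended on the thinning, and its summed CPM did not pass the test. Thinning left out 17 to 27 shallower cells in each aN1aN2 pool and at most 5 in any other.

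The 8 macrophage markers summed to 557 to 936 CPM in RW Th1, 362 to 1417 in aJ1aJ2 and 112 to 608 in aN1aN2, none of them at 0 in any group. The 4 parathyroid markers summed to 10.0 to 49.1 CPM in RW, 19.4 to 72.0 in aJ1aJ2 and 125 to 287 in aN1aN2, and Gcm2 was at 0 in RW. The 5 Schwann cell markers summed to 243 to 277 CPM in RW, 169 to 227 in aJ1aJ2 and 109 to 131 in aN1aN2, without overlap, and Sox10 was at 0 in every group. The 4 skeletal muscle markers summed to 1.74 to 4.18 CPM in RW, 4.15 to 26.6 in aJ1aJ2 and 5.98 to 36.6 in aN1aN2, none of them at 0 in any group. Over all samples the P cells themselves read 9.67 CPM of Abca1, 2.90 of Abcg1, 4.83 of Insig1 and 8.70 of Fdft1, below the aN1aN2 thyrocytes in each case. The part of these marker shifts in the member results was not tested.

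Of 62 further sterol genes, 47 passed the count filter in thyrocytes, and 9 were called higher and 10 lower for aN1aN2 against RW. These are 40.4% of the tested genes, near the 34.4% of all genes called in this comparison, so the count says nothing particular to sterol genes. The 19 called genes became 12 by DESeq2, 12 with the same number of Th1 cells in each sample and 2 in the cells with 5000 to 12000 UMIs. None was called for aJ1aJ2 against RW by edgeR or DESeq2, with 4 at an unadjusted edgeR p under 0.05. Of 15 tested synthesis genes 3 rose and 4 fell, with a median log2 change of -0.39, against 0.02 over all genes. That is 46.7% called, against 34.4% of all genes. The ones that fell were Mvd (-1.42 ± 0.37, SE, adjusted p = 0.00713), which makes isopentenyl diphosphate, Fdps (-1.27 ± 0.21, SE, adjusted p = 0.000266), the farnesyl diphosphate synthase, and the late-step enzymes Msmo1 (-0.83) and Ebp (-0.71). Fdps read 32.3 ± 2.81 CPM in RW, 25.4 ± 6.19 in aJ1aJ2 and 13.4 ± 0.403 in aN1aN2 (SD, n = 3 each). The ones that rose were Acat2 (1.26 ± 0.20, SE, adjusted p = 0.000177), an acetoacetyl-CoA thiolase, Hsd17b7 (1.22) and 1 other.

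Of 12 tested genes of sterol regulation and uptake, 4 rose and none fell (median 0.28), or 33.3% called against 34.4% of all genes. They included Mylip (0.78 ± 0.17, SE, adjusted p = 0.00195), the ligase that degrades the LDL receptor, Srebf1 (0.74 ± 0.15, SE, adjusted p = 0.00147) and Vldlr (0.52). Mylip read 79.5 ± 14.99 CPM in RW and 136 ± 22.3 in aN1aN2 (SD, n = 3 each). Of 9 tested genes of efflux and LXR, Rxra (1.34 ± 0.18, SE, adjusted p = 4.47e-05) and Rxrb (0.53), the retinoid X receptors, rose, and the lipid carriers Pltp (-1.20 ± 0.25, SE, adjusted p = 0.00187) and Apoc1 (-0.98) fell (list median 0.03), or 44.4% called against 34.4% of all genes. Apoc1 was at 0.19 (adjusted p = 0.883) in the cells with 5000 to 12000 UMIs. Of 11 tested genes of storage and trafficking none rose and 4 fell: the sterol carriers Gramd1b (-1.31 ± 0.23, SE, adjusted p = 0.000531) and Osbp (-0.42), the cholesterol ester hydrolase Nceh1 (-0.63) and the droplet coat gene Plin2 (-0.51). The median of that list was 0.01, and 36.4% of it was called against 34.4% of all genes. For aN1aN2 against aJ1aJ2, 4 of the 47 genes were higher and 6 lower, or 21.3% called against 22.3% of all genes. These 10 became 4 with the same number of Th1 cells in each sample, 0 in the cells with 5000 to 12000 UMIs, 4 without aJ1aJ2 4 or aN1aN2 1, and 6 without aN1aN2 2 or aN1aN2 3.

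**Figure D3:**
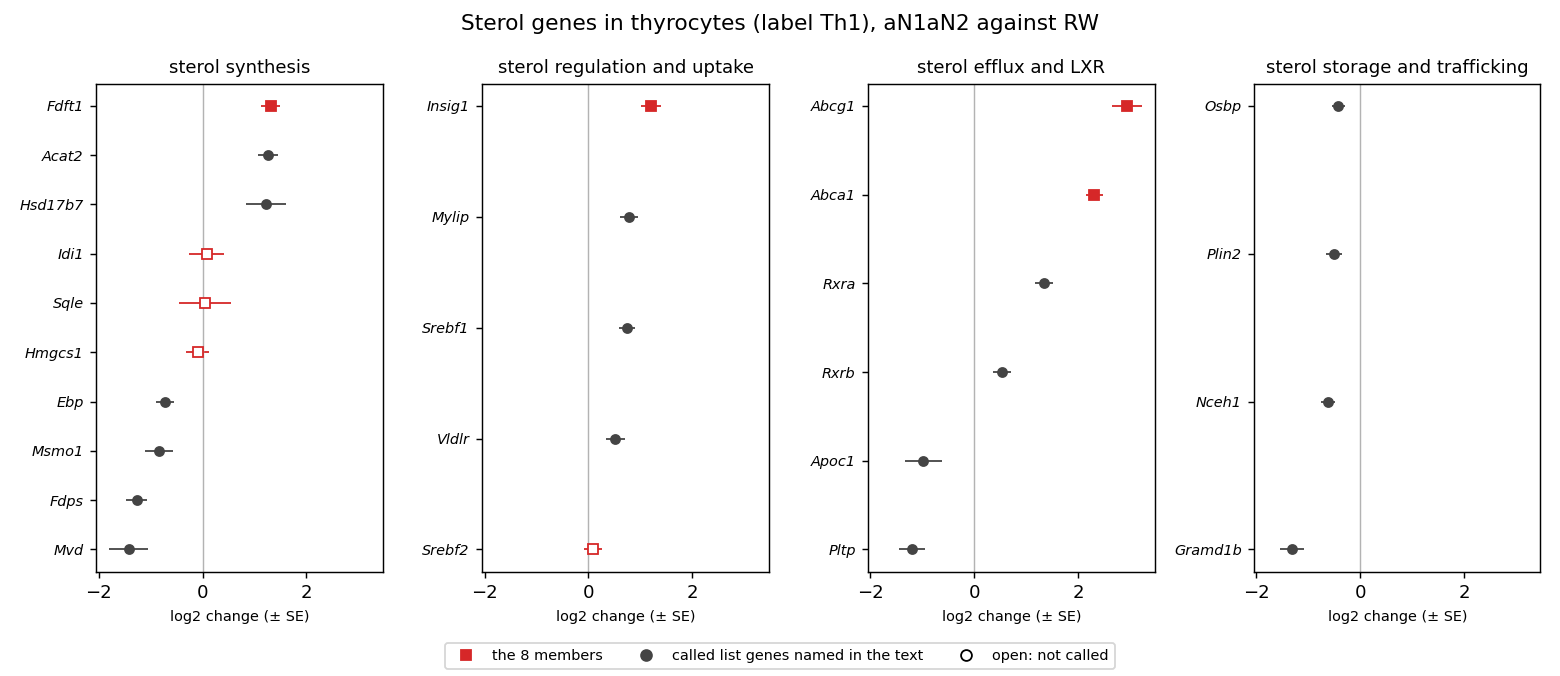
Log2 change (± SE) of aN1aN2 against RW in Th1 for the 8 members (red squares) and the called genes of 4 sterol lists that the text names (dark circles); filled symbols were called, and list genes that did not pass are not drawn. The pumps Abcg1 and Abca1 stand farthest right at 2.93 and 2.31, and Mvd, Gramd1b and Fdps farthest left.

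In the endothelial label EC1, receptor blockade went with less Hmgcs1 and more Abca1. Hmgcs1 read 48.0, 45.7 and 48.1 CPM in RW 1 to 3, 27.4, 27.1 and 34.6 CPM in aJ1aJ2 1, 3 and 4, and 15.8, 13.2 and 15.7 CPM in aN1aN2 1 to 3. The 3 groups did not overlap, and the aN1aN2 values rest on 17 UMIs. Hmgcs1 fell by 1.66 on the log2 scale (SE 0.28, adjusted p = 0.000206) against RW and by 1.00 (adjusted p = 0.0334) against aJ1aJ2. For aJ1aJ2 against RW it was at -0.65 ± 0.18 (SE, adjusted p = 0.0729), which did not pass. Abca1 read 9.86, 18.3 and 4.49 CPM in RW, 9.68, 18.3 and 13.3 CPM in aJ1aJ2, and 40.7, 34.4 and 47.2 CPM in aN1aN2. The aN1aN2 pools lay above all others, with a log2 change of 2.01 ± 0.41 (SE, adjusted p = 0.00117) against RW and of 1.46 ± 0.40 (SE, adjusted p = 0.0161) against aJ1aJ2. Against aJ1aJ2, the Abca1 call was lost without aJ1aJ2 4, aN1aN2 1 or aN1aN2 3 (adjusted p from 0.0563 to 0.0787). The Hmgcs1 call was lost there without aJ1aJ2 4 or any aN1aN2 pool (0.0738 to 0.131) and by DESeq2 (0.149).

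Abcg1 in EC1 read 52.6, 39.6 and 35.03 CPM in RW, 29.0, 22.0 and 35.9 CPM in aJ1aJ2, and 31.6, 7.94 and 28.3 CPM in aN1aN2. The RW and aN1aN2 ranges did not overlap, but the log2 change of -0.88 ± 0.35 (SE) did not pass (adjusted p = 0.0901). Idi1 was at -0.82 ± 0.31 (SE, adjusted p = 0.0773) under aN1aN2, also without overlap and without passing. Insig1 (0.05), Fdft1 (0.08) and Srebf2 (-0.28) did not pass either. 7 of the 8 members passed the filter in EC1 (Sqle did not). Of these 2 were called for aN1aN2 against RW, where 17.8% of 9369 genes were called, and 2 for aN1aN2 against aJ1aJ2, where 13.5% were called. Of 43 tested further sterol genes in EC1, 4 were called higher and 4 lower for aN1aN2 against RW (18.6%) and none for aJ1aJ2 against RW.

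Cell type markers moved in EC1 too. EC1's own 6 endothelial markers summed to 14590 to 16107 CPM in RW, 12799 to 15885 in aJ1aJ2 and 10678 to 11176 in aN1aN2. The 8 thyrocyte markers summed to 716 to 991 CPM in RW and 1319 to 1916 CPM in aN1aN2, with Duox2 at 0 in both and Slc5a5 at 0 in aN1aN2. For the 4 parathyroid markers the sums were 48.0 to 93.4 CPM (RW) and 227 to 331 CPM (aN1aN2), with Casr and Gcm2 at 0 in both. For the 4 C cell markers they were 28.7 to 70.0 CPM (RW) and 129 to 185 CPM (aN1aN2), with Calcb at 0 in both. If thyrocyte RNA had come along in the proportion of Tg, it would have brought 2.79 to 5.86 CPM of Abca1 into the aN1aN2 sums, which read 34.7 to 47.5 CPM before the scaling factor. The 8 macrophage markers summed to 392 to 851 CPM in RW, 84.4 to 125 in aJ1aJ2 and 18.1 to 172 in aN1aN2, where Adgre1, Cd68 and Csf1r were at 0. The proportion of Tg is an assumed carry-over, and the part of these marker shifts in the Abca1, Hmgcs1 and Abcg1 values was not tested.

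**Figure D4:**
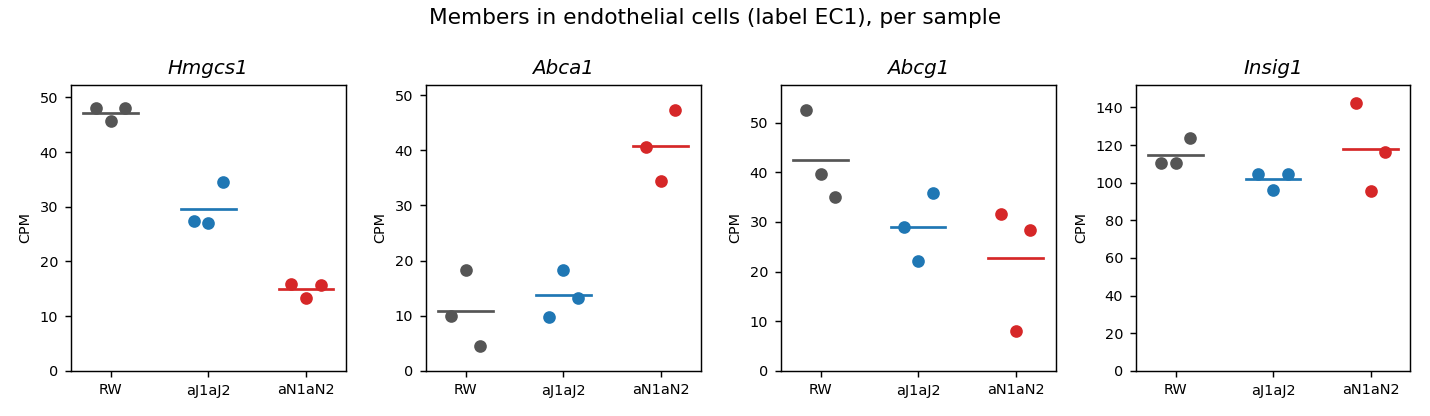
CPM of Hmgcs1, Abca1, Abcg1 and Insig1 in the 9 EC1 sums (linear axes from 0); points are samples and lines are group means. The aN1aN2 points are the lowest for Hmgcs1 (13.2 to 15.8) and the highest for Abca1 (34.4 to 47.2), and for Insig1 the aN1aN2 points overlap both other groups.

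Few members had enough counts in the remaining labels. In Th3, Abca1 read 32.1, 15.1 and 26.4 CPM in RW, 13.8, 27.5 and 48.8 CPM in aJ1aJ2, and 186, 87.6 and 86.2 CPM in aN1aN2. The aN1aN2 pools lay above the others, and the log2 change against RW was 2.15 ± 0.51 (SE, adjusted p = 0.0368), where 5.03% of 2087 genes were called. The call was lost without RW 1, RW 2, RW 3, aJ1aJ2 3, aJ1aJ2 4, aN1aN2 1 or aN1aN2 3 (adjusted p from 0.0837 to 0.195) and by DESeq2 (0.0630). Tg in Th3 stood at 25.6 to 118% of its Th1 level in aN1aN2 pools. Th1 RNA in that proportion would bring 83.3 to 353 CPM of Abca1, against 68.9 to 187 plain CPM read there, so Th1 RNA and Th3's own Abca1 cannot be told apart. In S, Hmgcs1 read 398 and 269 CPM in RW 1 and RW 3 and 133 and 206 CPM in aJ1aJ2 3 and 4. Its log2 change of -1.09 ± 0.58 (SE) did not pass (adjusted p = 0.475). Without RW 3, which leaves 1 RW pool, it was -1.33 (adjusted p = 0.00168), a fit that takes the lone pool to vary like the others.

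For aJ1aJ2 against RW, 22 pairs of a member and a label other than Th1 passed the filter and none was called by edgeR or DESeq2, with 4 at an unadjusted edgeR p under 0.05. The share of all genes called in those labels was 1.43% in EC1, 1.91% in EC2, 0.0618% in EC3, 0.903% in EC4, 0.579% in F, and 0 in M, S and Th3. Without RW 3, 4 pairs were called, among them Srebf2 in EC1 (-1.001, adjusted p = 0.0193). Calls also arose with the title range as a block and within the title range that holds RW 1 and RW 2. For aN1aN2 against RW, 17 pairs were tested and the 3 described above were called. For aN1aN2 against aJ1aJ2, 17 pairs were tested and the 2 in EC1 were called, where the share of all genes called was 10.5% in EC2, 1.27% in EC3, 17.2% in EC4, 16% in F and 1.44% in Th3. Abca1 did not pass in EC2 (0.91), EC3 (0.09) or F (0.80), and Insig1 did not pass in EC3 (-0.55), EC4 (-0.06) or F (0.33), where 15.5% of genes were called in EC2, 5.91% in EC3, 21.1% in EC4 and 19.8% in F. Hmgcs1 in EC3 read 31.9, 69.3 and 45.2 CPM in RW and 16.4, 18.2 and 13.2 CPM in aN1aN2, apart but not called (-1.62 ± 0.51, SE, adjusted p = 0.0805). Marker levels in EC3 also moved between these groups. For the 5 mural markers the sums were 2628 to 4145 CPM (RW) and 754 to 957 CPM (aN1aN2), for the 4 lymphatic endothelial markers 1682 to 3137 CPM and 549 to 1443 CPM, and for the 8 macrophage markers 82.5 to 1720 CPM and 0 to 6.61 CPM, with 7 of the 8 at 0 in every aN1aN2 pool. For the 6 endothelial markers they were 3335 to 4557 CPM (RW) and 5106 to 6734 CPM (aN1aN2). Those of the 5 erythroid markers were 118 to 294 CPM (RW) and 787 to 1131 CPM (aN1aN2), and those of the 4 parathyroid markers 20.6 to 55.2 CPM and 79.4 to 327 CPM, with Casr and Gcm2 at 0 in both groups. The sums were lower in aN1aN2 for the 5 fibroblast markers (60.3 to 892 CPM in RW, 18.2 to 41.0 CPM in aN1aN2, 2 of 5 at 0 there), the 5 Schwann markers (11.2 to 48.7 CPM against 0 to 8.20 CPM) and the 5 thymocyte markers (2.51 to 11.2 CPM against 0 in every pool). The part of these shifts in the Hmgcs1 values was not tested.

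Fewer of the further sterol genes passed the filter in the other labels. In EC4 only 10 were tested, and for aN1aN2 against RW 6 were called higher and 1 lower (70.0%), beside the 21.1% of all genes. Against aJ1aJ2 4 of them were called higher and 1 lower (50%), beside 17.2%. In EC2, with 10 tested, 1 was called higher and 2 lower for aN1aN2 against RW (30.0%, beside 15.5%). In EC3 2 of 29 were called higher (6.90%, beside 5.91%), in F 2 of 19 higher (10.5%, beside 19.8%), and in Th3 1 of 6 lower (16.7%, beside 5.03%). For aJ1aJ2 against RW, 1 of 10 was called higher and 1 lower in EC2 (20.0%, beside 1.91%). In EC4 1 of 10 was called higher (10.0%, beside 0.903%). None was called in EC3, F, M, S, T1 or Th3. For aN1aN2 against aJ1aJ2, 5 were called higher and 2 lower of 43 in EC1 (16.3%, beside 13.5%). In EC2 it was 2 higher and 1 lower of 10 (30.0%, beside 10.5%), and in F 2 higher of 19 (10.5%, beside 16%). None was called in EC3, SM or Th3, with 29, 11 and 6 tested. These aN1aN2 comparisons share their aN1aN2 samples.

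**Figure D5:**
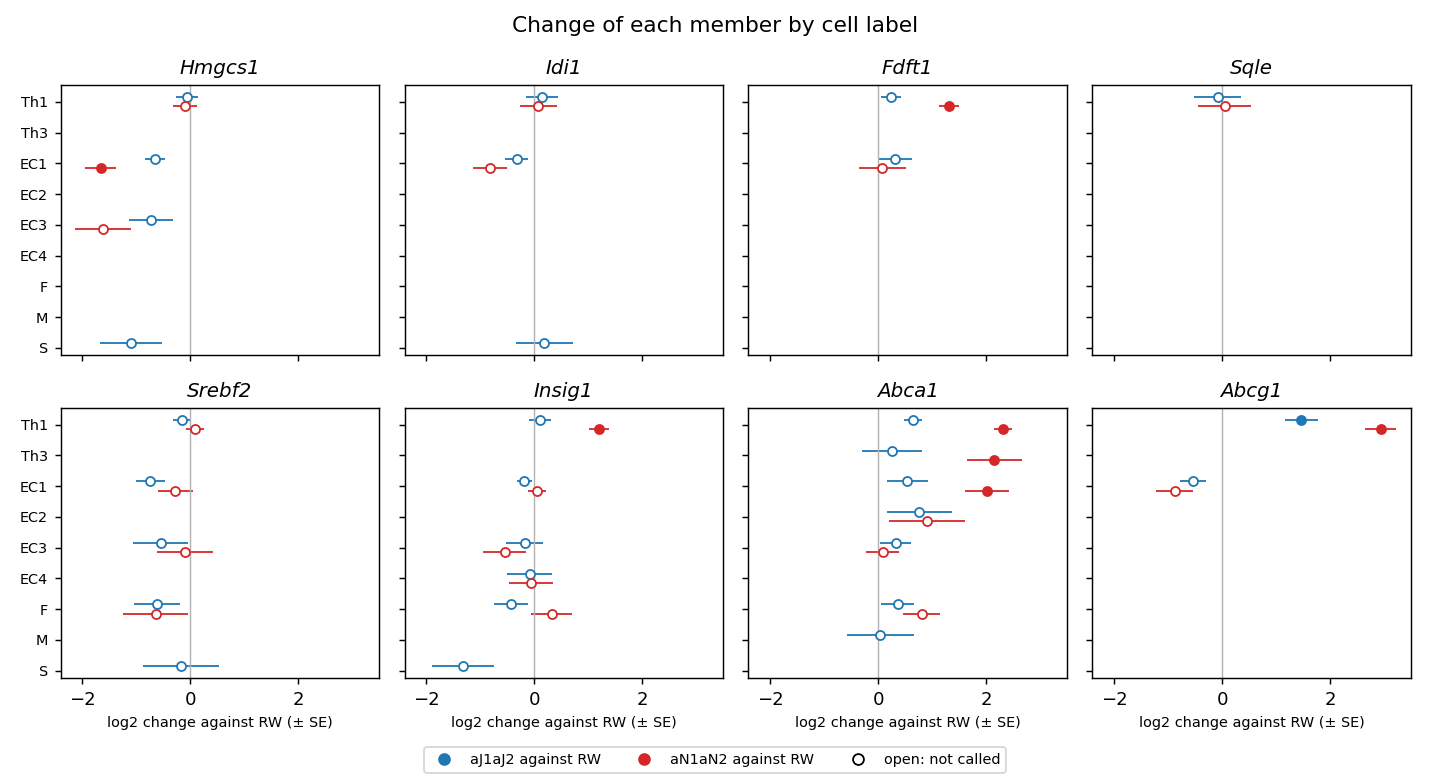
Log2 change (± SE) against RW of each member in each label where it passed the count filter, for aJ1aJ2 (blue) and aN1aN2 (red); filled points were called. Abca1 has filled red points in Th1, Th3 and EC1, Hmgcs1 in EC1 only among the labels drawn, and Insig1 and Fdft1 in Th1, where Abcg1 is filled in both colours.

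The change of the pumps differed between thyrocytes and other labels when the difference itself was tested, with the sample as a block. For Abcg1 under aN1aN2, the log2 change in EC1 minus that in Th1 was -3.92 ± 0.43 (SE, adjusted p = 2.45e-06), where 8.69% of genes differed. Abcg1 did not pass the count filter in EC3 or EC4 and entered the joint fit through the thyrocyte sums, where it is high, so only its counts are given there. EC4 held 13 Abcg1 UMIs in aN1aN2 and 17 in RW, a ratio per UMI of 0.561 (95% exact interval 0.251 to 1.23, counting error only). EC3 held 1 against 23, a ratio of 0.140 (95% exact interval 0.00339 to 0.860). For Abca1 the change under aN1aN2 was smaller than in Th1 by -2.18 ± 0.30 in EC3 and -1.56 ± 0.30 in F (SE, adjusted p = 0.000253 and 0.000377), where 3.15% of genes differed in EC3 and 5.43% in F. In EC1 and Th3 the difference of Abca1 from Th1 did not pass (-0.32 ± 0.36 and -0.32 ± 0.53, SE). In EC4 Abca1 did not pass the count filter either, with 14 UMIs in RW (15.7 to 74.1 CPM) and 19 in aN1aN2 (25.0 to 50.1 CPM), and the ranges overlapped. Beside the EC3 differences stand the marker sums given above for that label. In EC4 the sums of the 8 macrophage markers were 86.2 to 634 CPM (RW) and 6.24 to 31.9 CPM (aN1aN2, 5 of 8 at 0), and those of the 5 Schwann markers 36.8 to 666 CPM and 4.56 to 18.7 CPM. Those of the 5 erythroid markers were 219 to 1062 CPM (RW) and 1531 to 2270 CPM (aN1aN2), and those of the 4 C cell markers 73.7 to 98.8 CPM and 187 to 449 CPM, with Calcb at 0 in both groups. The 6 endothelial markers there summed to 13947 to 14770 CPM (RW) and 11405 to 12015 CPM (aN1aN2). In F the 5 mural markers summed to 139 to 283 CPM (RW) and 102 to 114 CPM (aN1aN2), and the 5 erythroid markers to 109 to 292 CPM and 861 to 43478 CPM. Their part in the differences of Abca1 and Abcg1 was not tested.

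The change of Insig1 lay below that in Th1 in EC1 (-1.24 ± 0.24, SE, adjusted p = 0.00181) and in EC3 (-1.76 ± 0.44, SE, adjusted p = 0.0300). The EC3 difference was lost without RW 3 or any aN1aN2 pool (adjusted p from 0.0770 to 0.115). The change of Hmgcs1 in EC1 lay below that in Th1 by -1.62 ± 0.41 (SE, adjusted p = 0.0132), and not without aN1aN2 2 (adjusted p = 0.0924). Of the 17 pairs of a member and a label that passed the filter in that label, these 6 differed from Th1 under aN1aN2. In the other labels 3.46% of genes differed in EC2, 5.54% in EC4, 0.0614% in Eryth2, and 0 in Eryth1 and Th3. Under aJ1aJ2 1 of 22 such pairs did, Abcg1 in EC1 (-2.10 ± 0.40, SE, adjusted p = 0.0173), where 0.369% of genes differed. Without aJ1aJ2 3 that pair was not called (adjusted p = 0.179). In the other labels under aJ1aJ2, 0.55% of genes differed in EC2, 0.0198% in EC3, 0.197% in EC4, 0.338% in F, 0.118% in S, 0.198% in T1, 0.0122% in Th3, and 0 in M, Eryth1 and Eryth2.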

How the data were processed

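Single-cell libraries (10x 3′ v2) were deposited by the authors as raw UMI counts per gene and cell with a cell label; per the submitters' processing notes Cell Ranger and GRCm38 were used (versions and strand setting not given in the sources used here). Cells with under 500 UMIs were not in the deposited table, and doublet treatment is not given in the sources used here; none was applied. 2619 annotation lines whose columns were shifted were read by content. Symbols matched 52403 of 52636 identifiers, and the other 233 held 0.0293% of UMIs.

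Counts were summed per sample and label (at least 20 cells, at least 2 samples per group compared) and tested with edgeR 4.0.16 in R 4.3.3 (filterByExpr, TMM, quasi-likelihood F test, 9 samples in 1 fit, Benjamini-Hochberg adjustment over all genes of a label, called under 0.05). SE is the log2 change divided by the square root of F. Differences between a label and Th1 were fitted as an interaction with the sample as a block. The tests were tried on simulated data. Alternatives were DESeq2 1.42.0, other size factors, no count filter, other sets of cells or samples, leaving out each sample, title ranges and a replicate block. Figures and intervals used Python 3.11.15. Samples of 1 group differed by more than sampling noise (chi-square per degree of freedom 1.66 to 8.08), so all were kept as separate replicates. Cell numbers of a label and the UMIs per cell both enter a summed count, and CPM removes both. A CPM value is thus a share of the UMIs of a label, not an amount per cell. The rule for named genes was all 8 members, up to 6 called genes per sterol list in Th1 with the largest change, and the 3 genes with the highest r to each member (mean of at least 20 CPM). Likeness across the 9 Th1 sums is not given, since the groups form separate clusters there. The members and lists were chosen with earlier results of these data known. Some genes that this rule names are not reported here.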

Additional observations from a re-analysis of the deposited data

Results flagged for a closer look

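10 pairs of a member and a label changed differently from the same gene in thyrocytes, label Th1, by a test of the difference itself (edgeR, change in the other label minus change in Th1, log2). For aJ1aJ2 against RW it was Abcg1 in EC1, at -2.10. For aN1aN2 against RW, Abcg1 differed by -3.92 in EC1, -3.70 in EC4 and -5.46 in EC3, the last on 1 UMI in aN1aN2 and dependent on the fit's prior. The EC4 counts were 13 UMIs in aN1aN2 and 17 in RW, a ratio per UMI of 0.561 (95% exact interval 0.251 to 1.23, counting error only). Abca1 differed by -2.18 in EC3, -2.35 in EC4 and -1.56 in F. Abcg1 in EC3 and EC4 and Abca1 in EC4 did not pass the count filter in those labels and entered the fit through Th1, where both are high, so these 3 values are no support for a difference. The call of Abca1 in EC4 was lost without RW 1 or RW 2 (adjusted p = 0.0514 and 0.0944). Insig1 differed by -1.24 in EC1 and -1.76 in EC3, and Hmgcs1 by -1.62 in EC1. Groups of 3 samples were too small to look for single outlying samples.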

How the results depend on the processing

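For aN1aN2 against RW in Th1, the changes of Abca1 (2.20 to 2.59), Abcg1 (2.57 to 3.44), Fdft1 (1.19 to 1.42) and Insig1 (0.93 to 1.41) stayed called under every alternative that could test them. In Th1 cells with 5000 to 12000 UMIs, a range added after the data were seen, fewer genes passed the count filter: 1 member was called against RW and 1 against aJ1aJ2 (4 each in all cells), 2 and 0 sterol list genes (19 and 10 in all cells), and no member for aJ1aJ2 against RW. Apoc1 turned from -0.98 to 0.19 there. With the same number of Th1 cells per sample, 0 members were called for aJ1aJ2 against RW, and 12 and 4 list genes for aN1aN2 against RW and against aJ1aJ2. Members called for aJ1aJ2 against RW in Th1 (1) became 2 by DESeq2 or without the count filter, 0 with only the 2 groups compared or with Th1 and Th3 summed, and 0 to 2 when a sample was left out. In other labels (0) they became 1 with the title range as a block and 4 within the range holding RW 1 and 2, and 0 to 4 when a sample was left out. List genes called in Th1 for aJ1aJ2 against RW (0) became 1 without the filter or within that range. DESeq2 called 12 list genes for aN1aN2 against RW and 1 pair in other labels against aJ1aJ2 (2 by edgeR). No filter gave 5 pairs in other labels for aN1aN2 against RW (3 with it). Leaving out a sample gave 0 to 2 pairs and 4 to 10 list genes against aJ1aJ2, and 0 to 2 differences from Th1 under aJ1aJ2. The cause of these shifts was not tested except where named.

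RW and aN1aN2 share the numbers 1 and 2 in their titles. With these as a replicate block, 4 members were called in Th1, 4 pairs in other labels (Abca1 in F passed at 1.16, adjusted p = 0.00354, and Abca1 in Th3 did not, 0.0529) and 16 list genes. Same-numbered samples did not deviate together (r = -0.0399 over genes), so the numbers were not taken as a pairing.

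Counts limit Sqle, Idi1 and Abcg1 most: at most 55 Sqle UMIs were counted in any group's thyrocytes. Outside Th1 and EC1 few members passed the count filter, and a missing call there does not show that a gene did not change.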
